A study of Mus with 6 samples.

Results

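The 10 Kruppel-like factor genes Klf2, Klf3, Klf4, Klf6, Klf7, Klf9, Klf10, Klf12, Klf13 and Klf15 are described here across 6 RiboTag libraries of mouse brain. They were chosen by gene symbol, and all 10 were among the 18887 genes of the deposited table. RiboTag profiling precipitates tagged ribosomes of a chosen cell type together with the mRNA bound to them. There were 4 precipitates titled IRKO with the genotype KO, which were set against 2 control precipitates with the genotype Ctr. The abbreviation IRKO is taken to mean an insulin receptor knockout, since insulin signalling is named in the title of the study. All 6 precipitates came from whole brain and are labelled as microglia, the immune cells that reside in brain tissue. No source used here names the driver of the ribosome tag or of the knockout, or the strain, age and sex of the animals. Nor do the labels say whether each library had its own animal, so the p-values reflect spread between these libraries, which may be technical.

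Kruppel-like factors are transcription factors that bind GC-rich and CACCC-box DNA through zinc fingers at the carboxyl terminus. The rest of the protein differs between members and recruits different partners, so that some act mainly as activators and others as repressors. In the vessel wall and in myeloid cells Klf2 and Klf4 are known for restraining inflammation, while Klf9 and Klf15 are known as genes that glucocorticoids induce.

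Each library held between 13858978 and 19010680 reads, and the unit throughout is the normalized count, reads of a gene divided by 1 size factor per library. Insr, which encodes the insulin receptor, stood at 357, 366, 290 and 339.9 normalized counts in IRKO replicates 1 to 4, against 565 and 532 in the controls (log2 change −0.70, limma adjusted p = 0.00211). Its log2 change was −2.16 with libraries scaled to microglia markers (limma adjusted p = 7.76e-09), and −0.28 with libraries scaled to an equal total, where the call ended (limma adjusted p = 0.0841). The labelled cell type was checked against its markers: P2ry12, Tmem119 and Cx3cr1 were read in all 6 libraries, but so were all 20 astrocyte markers. Summed over the list, astrocyte markers reached 55552 to 85283 normalized counts in IRKO and 689636 to 876356 in controls. Neuron markers were higher in IRKO, with sums of 122620 to 177320 against 68453.5 to 84738.9 in controls. Oligodendrocyte markers summed to 46741 to 78824.5 in IRKO and 37234.6 to 45858.7 in controls. The 28 homeostatic microglia markers summed to 492824 to 662243 in IRKO and 436089 to 441817 in controls. Cst3 made up most of that sum in controls and was lower in IRKO without passing the test, and the other 27 summed to 292533 to 412462 in IRKO and 111922 to 140730 in controls. The 5 red blood cell markers all fell (median log2 change −7.06) and summed to 243 to 2132 in IRKO and 75516 to 161622 in controls. Of 10 choroid plexus and ependyma markers 7 fell and 0 rose (median −2.13), with sums of 1106 to 12562 in IRKO and 5069 to 69428 in controls. By the test described below, 29.0% of all tested genes fell and 26.6% rose. The part of these cell types in the values of the factors was not tested. Because these are bulk precipitates, fewer cells of a type and less RNA per cell cannot be told apart in any value below.

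Of the 10 factors, 5 rose in IRKO (Klf2, Klf4, Klf6, Klf7 and Klf13), 1 fell (Klf15) and 4 did not pass the test (Klf3, Klf9, Klf10 and Klf12). The test was limma on log2(normalized count + 1) with Benjamini-Hochberg adjustment over 14698 genes, at a threshold of 0.05 on the adjusted p. Among all genes tested, 55.6% passed, 26.6% being higher and 29.0% lower in IRKO. The 6 calls among the factors therefore lay near the background share. The groups did not overlap for the same 6 factors, where 67.6% of all tested genes showed no overlap. The median log2 change of the 10 factors was 0.49, beside 0.02 over all tested genes, and the factors ranged from −2.56 for Klf15 to 1.92 for Klf4. All 10 passed the filter on low values in both groups.

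**Figure D1:**
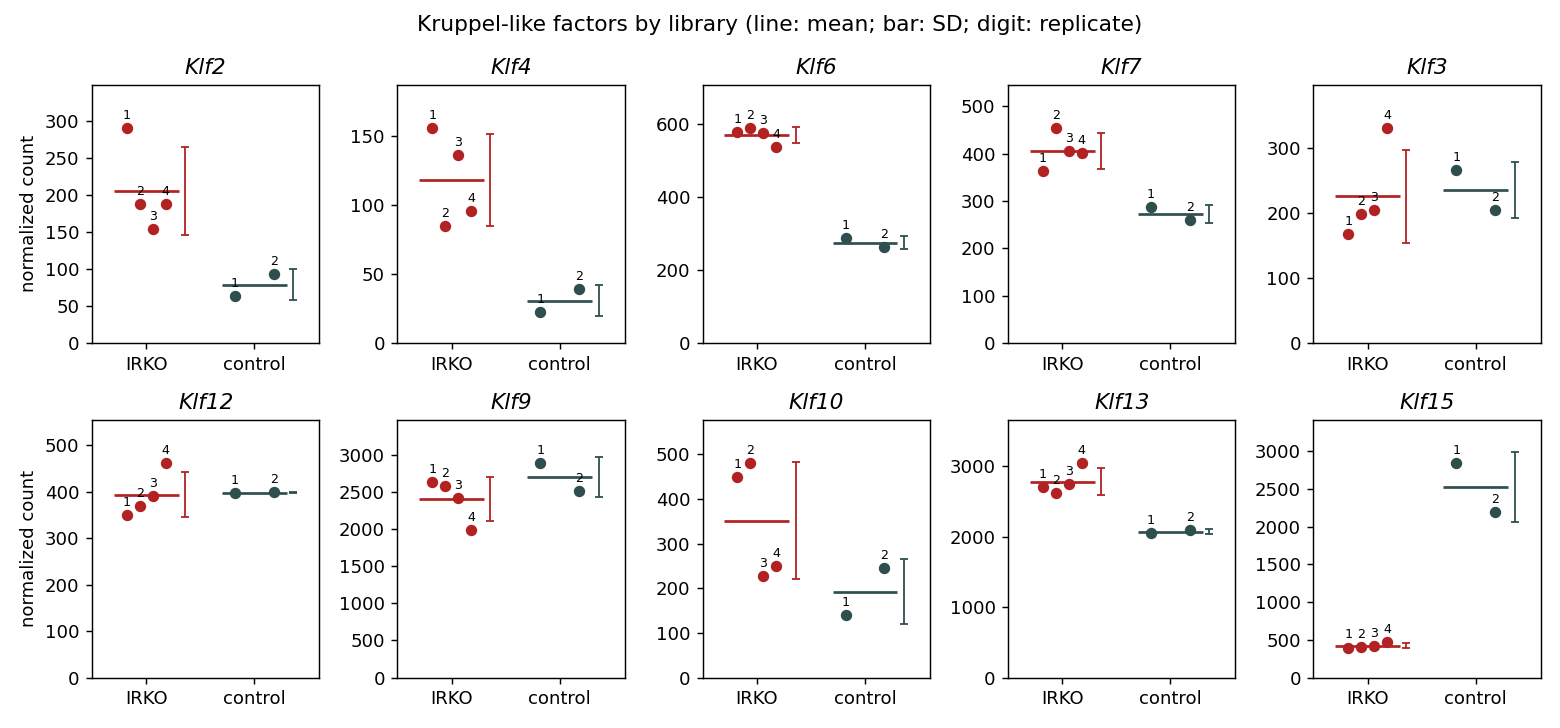
Normalized counts of each factor by library, with IRKO at the left and controls at the right of each panel. Points are libraries marked with their replicate number, lines are group means and bars are SD (n = 4 IRKO, n = 2 controls), and each vertical axis starts at 0. Klf15 stands at 399 to 476 in IRKO against 2195 and 2847 in controls, while Klf2, Klf4, Klf6, Klf7 and Klf13 lie above both controls in every IRKO library.

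Klf2 and Klf4 showed the largest rises among the 10 factors. Klf2, on chromosome 8 from 72319062 to 72321654 in GRCm38.p6, keeps T cells and endothelium quiescent. It had 291, 188, 154 and 188 normalized counts in IRKO replicates 1 to 4, against 64.1 and 93.9 in control replicates 1 and 2. Every IRKO library lay above both controls, and IRKO replicate 1 was the highest. The log2 change was 1.35 ± 0.265 (SE; n = 4 against 2; 95% confidence interval 0.76 to 1.95; limma adjusted p = 0.00225).

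Klf4, on chromosome 4 from 55527137 to 55532475, is one of the factors used to reprogram cells to pluripotency and acts in macrophage polarization. Its values were 156, 84.8, 136 and 95.4 in IRKO, against 22.5 and 38.7 in controls. These rest on 157, 86, 140 and 98 reads in IRKO and on only 20 and 40 reads in controls, so counting error weighs more on this gene than on any other factor here. The groups were apart in all libraries, with a log2 change of 1.92 ± 0.316 (SE; interval 1.21 to 2.63; limma adjusted p = 0.000856). Both genes had their lowest value in control replicate 1. Without that library their log2 changes were 1.08 (limma adjusted p = 0.0352) for Klf2 and 1.54 (limma adjusted p = 0.0145) for Klf4.

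Klf2 and Klf4 are also expressed by endothelial cells, and endothelial markers moved the same way. Of 14 endothelial markers 8 rose and 0 fell (median log2 change 0.80), beside 26.6% and 29.0% of all tested genes. The endothelial markers summed to 2157 to 2445 in IRKO against 1142 to 1296 in controls. Relative to the geometric mean of these markers within a library, Klf4 stood at 0.44, −0.38, 0.32 and −0.18 (log2 ratio) in IRKO and at −1.61 and −0.43 in controls. Klf2 stood at 1.34, 0.76, 0.50 and 0.79 in IRKO and at −0.14 and 0.83 in controls. On this ratio Klf2 overlapped between the groups, while for Klf4 the lowest IRKO value lay just above the higher control. The part of endothelial RNA in the rises of Klf2 and Klf4 was not tested.

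Klf6 and Klf7 are close relatives with an acidic activation region. Klf6, on chromosome 13 from 5861489 to 5870393, is an early response gene after tissue injury and promotes inflammatory transcription in macrophages. Its values were 578, 590.4, 576 and 538 in IRKO, against 289 and 262 in controls. It was the tightest of the factors within IRKO, with a coefficient of variation of 4.01%, and no IRKO library approached a control. Its log2 change was 1.05 ± 0.117 (SE; interval 0.78 to 1.31; limma adjusted p = 9e-05), the smallest p of the 5 rises. Microglia markers rose in the same libraries, in 26 of 28 cases with a median log2 change of 1.63, beside 26.6% of all tested genes. The part of microglia RNA in the rises of Klf2, Klf4 and Klf6 was not tested.

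Klf7, on chromosome 1 from 64029448 to 64122345, supports axon growth in neurons. It had 363, 454, 405 and 401 normalized counts in IRKO, against 287 and 259 in controls. The groups did not overlap, and the log2 change was 0.57 ± 0.136 (SE; interval 0.26 to 0.87; limma adjusted p = 0.00644). The call did not hold without control replicate 2 (0.49, limma adjusted p = 0.0552). Neuron markers moved in the same direction, 16 of 19 being higher in IRKO (median log2 change 0.85), beside 26.6% of all tested genes. The part of neuron RNA in the rise of Klf7 was not tested.

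Klf3 and Klf12 repress transcription by binding the corepressor CtBP. For Klf3, on chromosome 5 from 64803521 to 64832901, the values were 168, 199, 205 and 331 in IRKO, against 267 and 205 in controls. IRKO replicate 4 lay above both controls and replicates 1 to 3 below both, so the groups overlapped (log2 change −0.10 ± 0.256, SE; interval −0.68 to 0.48; limma adjusted p = 0.762). The predicted gene Gm38457 overlaps the Klf3 locus and has its own values in the table, and the sources used here do not say how the authors assigned reads between them. For Klf12, on chromosome 14 from 99866181 to 100285891, the values were 351, 369.6, 392 and 463 in IRKO and 397 and 399.9 in controls. The interval of its log2 change, −0.34 to 0.29, left room for a shift of that size either way (−0.03 ± 0.141, SE; limma adjusted p = 0.889). The genes for CtBP gave no call as deposited either, with log2 changes of −0.10 for Ctbp1 and 0.01 for Ctbp2. Scaled to the microglia markers both fell (−1.56 and −1.44), and with equal totals Ctbp1 rose (0.31).

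Klf9, Klf10 and Klf13 belong to the branch that recruits the Sin3 corepressor complex. Klf9, on chromosome 19 from 23141226 to 23168129, responds to thyroid hormone and glucocorticoids. It had 2629.96, 2583, 2410.4 and 1981 normalized counts in IRKO, against 2891 and 2513 in controls. The groups overlapped, with IRKO replicate 4 the lowest of all libraries (log2 change −0.18 ± 0.141, SE; interval −0.49 to 0.14; limma adjusted p = 0.311).

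Klf10, on chromosome 15 from 38291464 to 38300711, is an early target of TGF-beta. Its 4 IRKO libraries fell into a high and a low pair, at 449 and 481 in replicates 1 and 2 and at 227 and 249 in replicates 3 and 4, against 141 and 245 in the controls. IRKO replicate 3 lay below control replicate 2, so the groups overlapped, and its coefficient of variation within IRKO, 37.5%, was the largest of the 10 factors. The log2 change of 0.84 ± 0.343 (SE; interval 0.06 to 1.61) did not pass at a limma adjusted p of 0.0632. It passed without IRKO replicate 3 (1.02, limma adjusted p = 0.0308) and with DESeq2 (0.87, DESeq2 adjusted p = 0.0206), and was 0.44 without control replicate 1 (limma adjusted p = 0.441). With the replicate number as a block it also passed (1.32, limma adjusted p = 0.00617), from replicates 1 and 2 of each group.

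Klf13, on chromosome 7 from 63886351 to 63938915, is known from human T cells as a driver of the chemokine gene CCL5. Its values were 2709, 2623, 2743 and 3048 in IRKO, against 2049 and 2094 in controls. No IRKO library reached down to the controls, and the rise was modest, at a log2 change of 0.42 ± 0.108 (SE; interval 0.18 to 0.67; limma adjusted p = 0.00906). The call ended when control replicate 1 was left out (0.41, limma adjusted p = 0.0588).

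Klf15 was the single factor that fell. It lies on chromosome 6 from 90461043 to 90491803 and is known in liver and muscle for inducing amino acid breakdown and gluconeogenesis in fasting. It had 399, 402, 425 and 476 normalized counts in IRKO, against 2847 and 2195 in controls. Its mean was 426 ± 35.7 (SD, n = 4) in IRKO and 2521 ± 461 (SD, n = 2) in controls. Every IRKO library lay below both controls, with a log2 change of −2.56 ± 0.139 (SE; interval −2.87 to −2.24; limma adjusted p = 1.13e-06), and 3.78% of tested genes had a lower log2 change. This call held in each fit without 1 library (−2.74 to −2.37), with edgeR (−2.56) and with DESeq2 (−2.56).

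The fall of Klf15 stood beside a fall of all 20 astrocyte markers, whose log2 changes had a median of −3.97 and ran from −5.13 to −2.69. Klf15 thus changed slightly less than the least changed of these markers. Within a library, Klf15 relative to the geometric mean of the astrocyte markers was −1.25, −1.20, −1.52 and −1.21 (log2 ratio) in IRKO, against −2.74 and −2.69 in controls. On that ratio Klf15 was higher in each IRKO library, by 1.42 on the log2 scale. Relative to the microglia markers it was lower in each, at −4.29, −4.29, −3.77 and −4.04 in IRKO against −0.04 and −0.14 in controls. The part of astrocyte RNA in the Klf15 values was not tested.

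**Figure D2:**
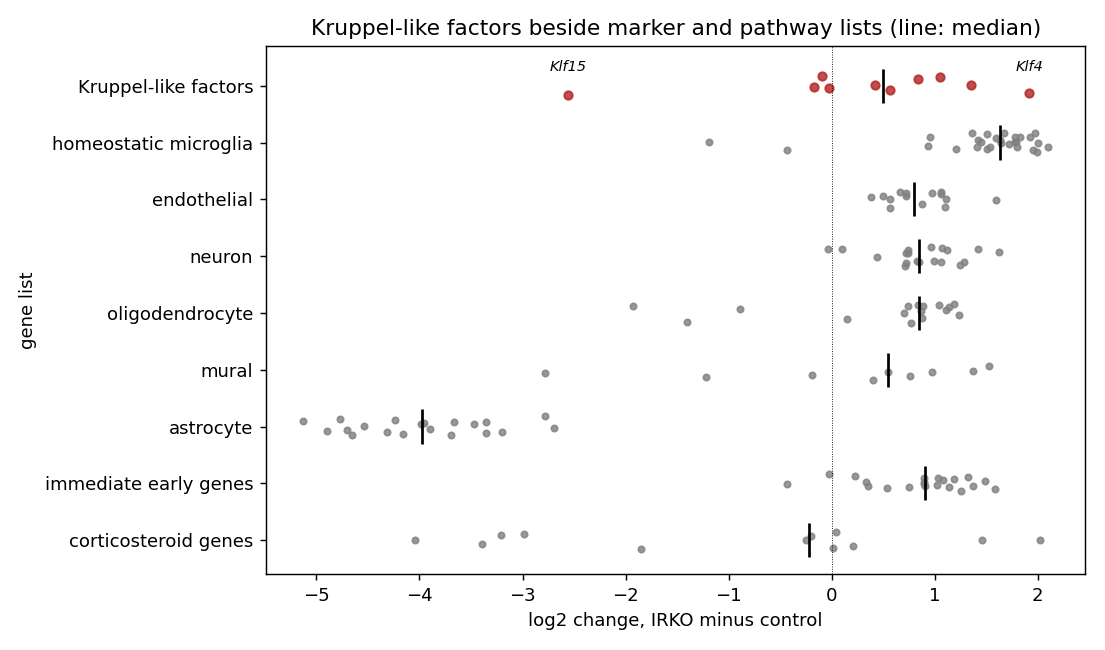
Log2 change (IRKO minus control) of each tested gene in the Kruppel-like factor list and in marker and pathway lists, with a black line at each median. Klf15 at −2.56 lies just above all 20 astrocyte markers, which span −5.13 to −2.69, and Klf4 at 1.92 lies among the homeostatic microglia markers (median 1.63).

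The direction of most factors depended on how libraries were scaled. In a fit with libraries brought to an equal geometric mean of the 28 microglia markers, the median change of all tested genes was −1.43, and 0 factors rose while 6 fell (Klf3, Klf7, Klf9, Klf12, Klf13 and Klf15). Over all 14698 tested genes, 69 rose and 11725 fell in that scaling. Klf4 was the one factor above 0 there, at 0.49 (limma adjusted p = 0.226), with Klf2 at −0.09 and Klf6 at −0.41. The 95% intervals in that scaling were −0.27 to 1.25 for Klf4 and −0.70 to 0.51 for Klf2, so a difference from the microglia markers in either direction lay within the error of both. With libraries scaled to an equal total instead, the median change of all genes was 0.43, 6 factors rose (Klf10 joining the 5) and Klf15 fell. Over all 14698 tested genes, 6808 rose and 2441 fell with equal totals. Each scaling moves all genes of a library alike, so it shifts the level of the log2 changes and leaves their order as it was. Klf4 and Klf15 were far enough from 0 to keep their sign under these shifts, and the other 8 factors were not.

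**Figure D3:**
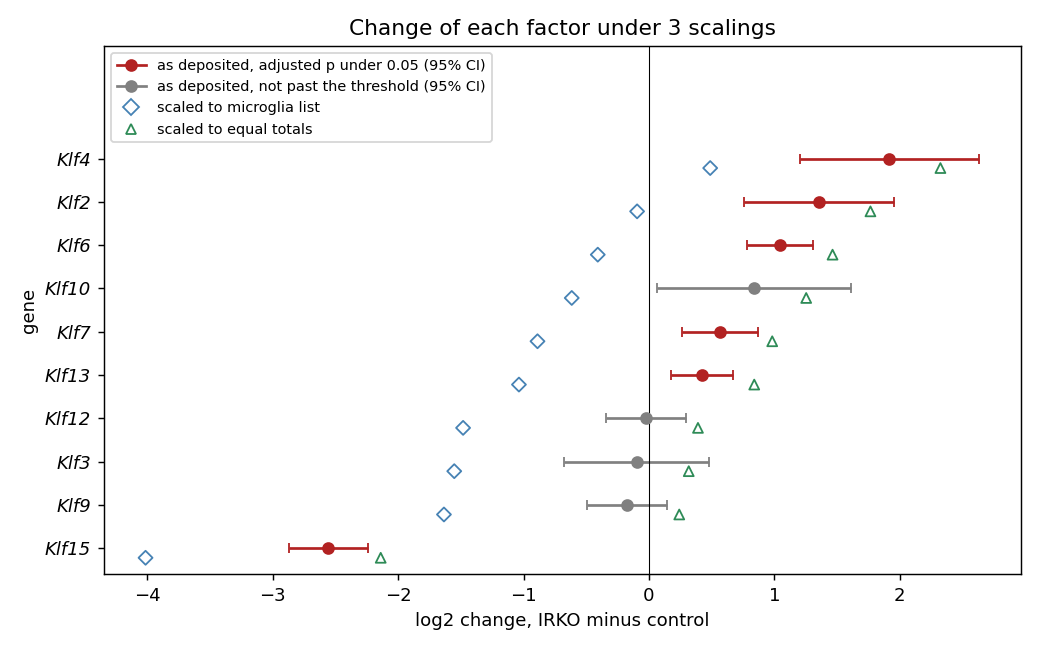
Log2 change of each factor (IRKO minus control) as deposited, with 95% confidence intervals, and under both other scalings (open symbols, no intervals drawn). Klf15 lies below 0 and Klf4 above 0 under all 3 scalings, and the other 8 change sign in at least 1.

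The make-up of the family within a library does not depend on scaling between libraries. As a share of the summed normalized counts of the 10 genes, Klf15 took 4.93, 5.04, 5.53 and 6.13% in IRKO, against 30.8 and 26.4% in controls. Klf13 took 32.9 to 39.2% in IRKO and 22.1 and 25.2% in controls, and Klf9 25.5 to 32.5% in IRKO and 31.2 and 30.3% in controls. Klf6 took 6.92 to 7.51% in IRKO against 3.12 and 3.16% in controls. These are shares of reads and not of transcripts, since gene lengths differ, and because they sum to a whole a lower Klf15 share raises the others. Summed over the 9 genes other than Klf15, Klf9 was 27.2 to 34.2% in IRKO and 45.1 and 41.1% in controls, and Klf13 was 34.6 to 41.8% in IRKO and 32.0 and 34.3% in controls. The summed level of the 10 genes was 7673 to 8094 normalized counts in IRKO and 9254 and 8307 in controls.

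**Figure D4:**
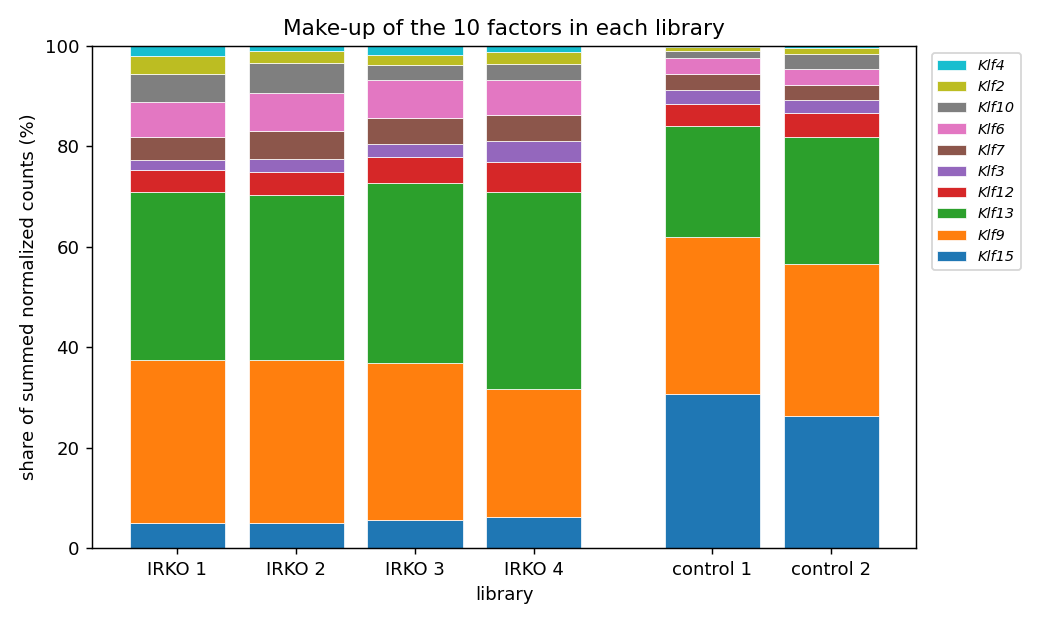
Share of each factor (percent) in the summed normalized counts of the 10 genes, 1 bar per library, with IRKO replicates 1 to 4 at the left and controls at the right. The lowest block, Klf15, takes 4.93 to 6.13% in IRKO against 30.8 and 26.4% in controls.

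Of the remaining 7 Klf genes, 4 passed the filter. Klf8, a CtBP-binding repressor like Klf3, had 42.6, 68.0, 50.5 and 48.7 normalized counts in IRKO, against 19.1 and 32.0 in controls (log2 change 1.03, limma adjusted p = 0.0182), a call that ended when control replicate 1 was left out (0.68, limma adjusted p = 0.151). Klf11, a relative of Klf10, had 101, 106, 83.6 and 86.7 in IRKO and 74.2 and 49.4 in controls (0.63, limma adjusted p = 0.0430), but did not pass once control replicate 2 was left out (0.34, limma adjusted p = 0.316). Leaving out IRKO replicate 1, 2 or 4 also ended the call of Klf11 (limma adjusted p = 0.0846, 0.0987 and 0.0565). Klf16 stood at 785 to 908 in IRKO and at 544 and 777 in controls and did not pass (0.34, limma adjusted p = 0.0817), though it did without control replicate 2 (0.60, limma adjusted p = 0.0142). Klf5 had few reads, 9, 10, 11 and 19 in IRKO against 0 and 4 in controls. It passed the filter through IRKO alone, so these reads are given as a description with no test. Klf1 and Klf14 had at most 6 reads in any library, and Klf17, with 0 reads in all 6 libraries, was not tested.

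Of the 16 relatives of the Klf and Sp families, 12 passed the filter other than through IRKO alone. Of these 2 rose, 1 fell and 9 did not pass, with a median log2 change of −0.05, where 26.6% of all tested genes rose and 29.0% fell. Leaving out control replicate 1 gave 1 higher and 3 lower, while leaving out control replicate 2 gave 3 higher and 0 lower. Scaling to the microglia markers gave 0 higher and 10 lower, and equal totals gave 6 higher and 0 lower. The single fall was Sp9, a factor of interneuron development, at 49.5, 46.3, 43.7 and 76.0 in IRKO against 83.2 and 201 in controls (limma adjusted p = 0.0144). Its call ended without control replicate 2 (−0.65, limma adjusted p = 0.183) and with equal totals (−0.87, limma adjusted p = 0.0715). The widely expressed Sp1 (0.20) and Sp3 (−0.07) did not pass as deposited. Both passed as rises with equal totals (0.62 and 0.35) and as falls when scaled to the microglia markers (−1.25 and −1.53).

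Among 17 genes that act upstream of Kruppel-like factors or serve as their cofactors, 7 rose, 5 fell and 5 did not pass. Over all tested genes, 26.6% rose and 29.0% fell. The median log2 change of the 17 genes was −0.10 (−1.56, with 0 higher and 14 lower, when scaled to the microglia markers). MEF2 factors and the kinase cascade above them induce Klf2 and Klf4 in endothelium. Mef2c, also a factor of microglia, had 5702, 5974, 3884 and 3708 normalized counts in IRKO against 1836 and 2068 in controls (log2 change 1.27). Mef2a (1.15) and Map3k3, a kinase at the top of that cascade (1.22), rose as well, while Mapk7, its last kinase, did not pass (−0.33). Mapk7 passed as a fall without IRKO replicate 4 (−0.39, limma adjusted p = 0.0327). It also did when scaled to the microglia markers (−1.78, limma adjusted p = 3.45e-07). The corepressor gene Sin3b (−0.78), the deacetylase gene Hdac1 (−0.65) and Kat2b, which encodes an acetyltransferase that acts as a coactivator (−0.71), fell. With equal totals the calls of Hdac1 (−0.24, limma adjusted p = 0.165) and Kat2b (−0.29, limma adjusted p = 0.0696) ended.

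Of 15 genes listed as targets of one or another factor, 12 were tested, 3 rose, 5 fell and 4 did not pass. The shares over all tested genes were 26.6% higher and 29.0% lower. The target genes had a median log2 change of −0.42, or −1.85 when scaled to the microglia markers. Prodh, a proline-degrading enzyme that Klf15 induces in other tissues, had 307, 241, 297 and 293 normalized counts in IRKO against 5238 and 3380 in controls (log2 change −3.89). S1pr1, a lipid receptor that Klf2 activates in T cells, fell (−3.48), opposite to Klf2 here. S1pr1 is also on the astrocyte marker list, and Prodh changed within the span of those markers. Cdkn1b, a cell cycle inhibitor, fell (−0.75), whereas Txnip, a thioredoxin-binding protein (1.51), Smad7, an inhibitor of TGF-beta signalling that Klf10 represses (1.07), and Kcnip2, a channel subunit gene under Klf15 in mouse heart (0.71), rose. The call of Kcnip2 ended without control replicate 1 (0.70, limma adjusted p = 0.0578) or control replicate 2 (0.71, limma adjusted p = 0.0527), and that of Cdkn1b with equal totals (−0.33, limma adjusted p = 0.0501).

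The 12 corticosteroid genes, receptors and genes that glucocorticoids induce, held 2 that rose, 5 that fell and 5 that did not pass (median −0.22, and −1.68 when scaled to the microglia markers). For comparison, 26.6% of all tested genes rose and 29.0% fell. Sgk1, a kinase, stood at 1584, 1040, 1854 and 1769 normalized counts in IRKO, against 381 and 368 in controls (log2 change 2.02). Fkbp5, a chaperone of the glucocorticoid receptor, rose too (1.46). Hsd11b1, which regenerates active corticosteroid (−4.05), and the metallothionein genes Mt1 (−2.99) and Mt2 (−3.39) fell, each within the span of the astrocyte markers. The receptor gene Nr3c1 did not pass as deposited (0.04), but passed as a rise with equal totals (0.46) and as a fall when scaled to the microglia markers (−1.42). Klf9 and Klf15, which glucocorticoids also induce, are not on this list.

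Klf2, Klf4, Klf6 and Klf10 are induced quickly by stimuli, as immediate early genes are. Of 21 immediate early genes, 10 rose, 1 fell and 10 did not pass, beside 26.6% higher and 29.0% lower over all tested genes. Their median log2 change was 0.90, or −0.55 when scaled to the microglia markers. The fall was that of Jun (−0.43, and −0.25 without control replicate 1). The call of Jun ended under quantile normalization (−0.24, limma adjusted p = 0.139) and with equal totals (−0.02, limma adjusted p = 0.918). Npas4, a neuronal activity factor, had 523, 587, 549 and 459.7 normalized counts in IRKO against 129 and 270.1 in controls (log2 change 1.49), and Zfp36, which destabilizes cytokine mRNA (1.32), and Ier5 (0.75) rose as well. The controls differed from each other here: the geometric mean of the list was 679, 737, 527 and 528 in IRKO, against 234 and 493 in control replicates 1 and 2. Without control replicate 1 only 3 of the 21 passed, and 17 passed without control replicate 2. Klf10 was likewise highest in IRKO replicates 1 and 2 and lowest in control replicate 1. Relative to the geometric mean of the list, Klf10 differed by −0.01 (log2) between the groups, Klf6 by 0.20, Klf2 by 0.50 and Klf4 by 1.07. On this ratio the groups were not apart for Klf10, Klf6 and Klf2. Klf6 stood at −0.32 to 0.13 in IRKO and at 0.31 and −0.90 in controls. Klf4 was above both controls in every IRKO library, at −3.10 to −1.94 against −3.31 and −3.63. The part of such stimuli in the values of these factors was not tested.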

How the data were processed

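Ribosome-bound mRNA was sequenced from 4 IRKO and 2 control precipitates. The tool Bowtie2 and the build GRCm38.p6 are named, per the submitters' processing notes. No source used here names the counting, the annotation, the strandedness or the normalization tool. The deposited values are a signal per gene: read counts divided by 1 size factor per library, as the values themselves show. In each library 100% of values were whole multiples of the value of 1 read, within 0.05 reads, and the inverse of that value equalled the median-of-ratios factor. In IRKO replicate 1 a read was worth 0.991, too near 1 for a step test, so edgeR was also run without it.

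Genes that reached a value of 10 in 2 or more libraries were tested with limma 3.58.1 (R 4.3.3) on log2(value + 1), with a variance trend, on all 6 libraries. Fold changes on that scale understate the change of low genes. The fit was tested on simulated data. edgeR 4.0.16 (quasi-likelihood) and DESeq2 1.42.0 on recovered reads, both other scalings, pseudocounts, filters, a replicate block and leaving out each library were alternatives; the 5-library edgeR fit, the equal totals, the sums without Klf15, the marker sum without Cst3, the relatives without Klf5 and the ratios to marker lists were added after seeing the data. Replicates differed by 16.8 to 36.9 in chi-square per degree of freedom, so none was a duplicate.

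The members and lists were chosen with earlier results of these data known. Named genes were the 10 factors, Insr, every tested Klf gene, defining markers and, per list, up to 3 genes with the smallest p in each direction. Cst3, Ctbp1, Ctbp2, Mapk7, Nr3c1, Sp1 and Sp3 were named after their values were seen. Coordinates of all 10 factors are those of RefSeq genes on GRCm38.p6.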

Additional observations from a re-analysis of the deposited data

How the results depend on the processing

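The number of factors called, 6 as deposited, was 5 to 7 in all 19 alternatives. The background of that number differed between settings. Over all 14698 tested genes, 8173 passed as deposited, 6935 with the replicate block, 9249 with equal totals and 11794 scaled to the microglia markers. Scaling to the microglia markers turned the split of the factors to 0 higher and 6 lower. The share of higher calls over all genes, 47.9% as deposited, was 0.585% in that scaling and 73.6% with equal totals. Scaled to the microglia markers, log2 changes turned negative for Klf2 (−0.094), Klf6 (−0.41), Klf7 (−0.89), Klf10 (−0.62) and Klf13 (−1.04), and calls numbered 10 for the Klf and Sp relatives and 7 for immediate early genes. With equal totals, Klf3 (0.32), Klf9 (0.24) and Klf12 (0.39) turned positive, and calls numbered 6 for the relatives other than Klf5 and 18 for immediate early genes. Under quantile normalization Klf9 (0.11) and Klf12 (0.10) turned positive, and with edgeR without IRKO replicate 1 so did Klf3 (0.087) and Klf12 (0.062). The causes were not tested.

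Leaving out 1 library gave −0.30 to 0.089 for Klf3, −0.11 to 0.027 for Klf12, 2 to 4 calls among the relatives with Klf5 counted (2 without IRKO replicate 4), and 3 to 17 among immediate early genes. Klf5 passed the filter through IRKO alone, so its call within these counts is no test. The relatives other than Klf5 had 1 higher and 1 lower call without IRKO replicate 1, 2 or 4. They had 2 higher and 1 lower without IRKO replicate 3. Scaled to the microglia markers, no named rise of a relative, cofactor, target, corticosteroid or immediate early gene stayed a rise: Ier5 (−0.71), Kcnip2 (−0.75) and Klf11 (−0.82) turned to falls, and the others did not pass. The log2 changes of Klf15 and Klf4 kept their sign in all 19 alternatives. Where a control is left out, the lone control is assumed to vary like the IRKO libraries. Replicate numbers are shared between the groups, but the labels state no pairing. Deviations of same-numbered libraries from their group means correlated at −0.08 and 0.08. The deviations of the 2 controls mirror each other by construction, so these values cannot decide whether libraries were paired. With the number as a block the relatives had 2 calls, Klf10 passed (1.32), and the other 9 factors kept the calls they had without the block.

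The difference in share (IRKO minus control, percentage points) was −23.2 for Klf15, and −25.4 to −21.0 without 1 library. Over the sum without Klf13 it was −29.0 for Klf15, 2.81 for Klf2, 1.85 for Klf4, 7.09 for Klf6, 3.91 for Klf7, 6.69 for Klf9, 3.86 for Klf10 and 1.82 for Klf12. Over the sum without Klf15 it was −0.71 for Klf3, 3.26 for Klf6, 1.09 for Klf7, −10.9 for Klf9, −1.07 for Klf12 and 4.24 for Klf13. These moves follow from the changed sum. Depth limited Klf4 most, with 20 and 40 reads in the controls.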
